A study of Mus musculus with 6 samples.

Results

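The class II presentation genes followed here are 7 genes of the 16158 measured: H2-Aa, H2-Ab1 and H2-Eb1, Cd74, H2-DMa and H2-DMb1, and Ciita. They were chosen by name from what they do in antigen presentation, with earlier results of these data known. Their mRNA was followed in keratinocyte states, fibroblasts and endothelium of mouse skin, with dendritic cells and macrophages of the same libraries as the reference. Single-cell libraries of treated skin came from 6 mice of the NINJA strain, 6 to 12 weeks old, whose cells can be induced to make a neoantigen. All 6 mice had skin treated with 4-OH-Tam, the active tamoxifen metabolite that drives inducible recombinases, and P14 CD8 T cells were recovered from each. The groups, of 2 mice each, were NO_AG with the antigen off, AG with the antigen on, and AG_CPI with the antigen on and CPI given, a treatment the labels do not spell out. The cell cluster led by Gzma, with Trbv13-3 and Cd8b1 among its leading genes, held 0 and 8 cells in NO_AG. It held 308 and 130 in AG and 768 and 854 in AG_CPI. P14 cells themselves were not identified here. The comparisons ask whether skin cells that are not leukocytes carried more class II mRNA where the antigen was on, and whether CPI went with a further difference.

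MHC class II molecules display peptides from the endosomal pathway to CD4 T cells, and professional antigen-presenting cells make them constantly. H2-Aa and H2-Ab1 encode the alpha and beta chains of I-A, H2-Eb1 the beta chain of I-E, and Cd74 the invariant chain that occupies the groove until a vesicle is reached. H2-DMa and H2-DMb1 encode the chains of the peptide editor that releases the invariant chain remnant. Ciita encodes the coactivator that binds the protein complex on class II promoters, and interferon-gamma is known to switch it on in cells outside the hematopoietic lineage, keratinocytes and endothelium included.

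Class II promoters carry an X box and a Y box in front of the start site, on which that complex assembles. RefSeq promoter windows (GRCm38.p6, the build family of the mm10 named in the submitters' processing notes) of 300 bases, from 250 before to 50 after the start site, were at hand for 4 members. The 3 shown here are 2 chain genes that rose in cycling keratinocytes, H2-Eb1 and H2-Aa, and an accessory gene that did not pass the test there, H2-DMb1. Capitals mark matches to the X box consensus or to the letters CCAAT (Y box), each searched on both strands.
H2-Eb1, chr17:34305617-34305916, plus strand: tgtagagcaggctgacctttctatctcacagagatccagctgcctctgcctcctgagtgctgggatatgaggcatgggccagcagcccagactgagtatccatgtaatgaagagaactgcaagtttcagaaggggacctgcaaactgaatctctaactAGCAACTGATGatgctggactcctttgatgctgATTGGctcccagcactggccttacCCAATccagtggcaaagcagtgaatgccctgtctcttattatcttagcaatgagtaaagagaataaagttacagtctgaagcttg
H2-Aa, chr17:34287774-34288073, minus strand: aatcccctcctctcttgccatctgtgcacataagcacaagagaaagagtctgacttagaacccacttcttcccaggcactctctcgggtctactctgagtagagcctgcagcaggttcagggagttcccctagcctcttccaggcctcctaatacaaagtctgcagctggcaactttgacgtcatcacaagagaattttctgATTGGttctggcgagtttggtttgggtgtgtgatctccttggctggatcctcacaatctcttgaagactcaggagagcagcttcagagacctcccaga
H2-DMb1, chr17:34152941-34153240, plus strand: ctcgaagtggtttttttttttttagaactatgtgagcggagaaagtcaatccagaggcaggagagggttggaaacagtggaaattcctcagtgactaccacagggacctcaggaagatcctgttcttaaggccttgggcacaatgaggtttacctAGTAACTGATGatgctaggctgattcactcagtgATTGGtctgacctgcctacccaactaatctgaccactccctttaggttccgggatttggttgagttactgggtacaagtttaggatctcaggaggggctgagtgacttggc
The H2-Eb1 window holds 1 X box match, which starts 92 bases before the start site, and 2 Y box matches. The H2-DMb1 window holds 1 X box match 95 bases before its start site and 1 Y box match 61 bases before it. In the H2-Aa window 1 Y box match lies 48 bases before the start site, and the X box consensus as searched is not in it. No 2 of these matches overlapped. Over 32851 promoter windows of this length 0.968% hold the X box consensus and 37.4% the Y box letters. The letters of an interferon-gamma activated site (TTCNNNGAA, in 8.3% of all windows) and of an interferon-stimulated element core (TTCNNTTTC or GAAANNGAA, in 8.56%) were in none of the members' windows. These 3 genes and H2-Ab1 and H2-DMa lie together in the MHC on chromosome 17, between H2-DMa at 34119693 to 34139101 and H2-Eb1 at 34305867 to 34316674, while Ciita lies on chromosome 16 at 10480014 to 10531064.

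The 6 libraries held 20464 cells after filtering and doublet removal, with medians of 2523 to 4709 UMIs per cell. Classes were rebuilt from marker genes without the class II genes, so each name stands for a class that is like that cell type by its markers. In all, 6498 cells were keratinocytes, 243 fibroblasts, 115 endothelium, 361 Langerhans cells, 157 other dendritic cells, 1179 macrophages and 6829 T cells, and 12.0% of cells stayed in unnamed clusters. A level below is the mean number of UMIs per 10000 UMIs of a cell over the cells of a class in 1 mouse. Of 20921 barcodes, 255 occurred in more than 1 library. Keratinocytes of AG mouse 2 had a median of 2660 UMIs and those of AG_CPI 3664 and 2834, against 5496 to 6849 in mouse 1 of AG and both NO_AG mice. Of the keratinocytes of AG mouse 2, 35.8% held a UMI of at least 1 of 5 leukocyte genes (Ptprc, Cd3e, Tyrobp, Lyz2, Cd207), and 628 of 1288 formed a stress keratin state led by Krt6a and Krt16 that had no cell in NO_AG. In mouse 1 of AG_CPI, 16.2% of 458 cells outside lymphocytes held a UMI of Ddx3y, against none of the cells outside lymphocytes in the other 5 libraries. The labels call the mice of a group biological replicates and give no litter, batch or day.

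Dendritic cells and macrophages held far more class II mRNA than any class outside leukocytes. The summed level of H2-Aa, H2-Ab1, H2-Eb1 and Cd74 was 1034 and 1081 in Langerhans cells of NO_AG and 1021 and 983 in those of AG, while AG_CPI had no Langerhans cell. Other dendritic cells held 921 and 798 in NO_AG (8 cells in mouse 2), 1013 and 717 in AG, while AG_CPI held 700.0 and 803. In macrophages of NO_AG it was 426 and 495, in those of AG 861 and 631, and in those of AG_CPI 687 and 735. The 3 classes thus lay between 426 and 1081, with the macrophages of NO_AG lowest.

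Outside leukocytes the summed level was far lower. In the named keratinocyte states and fibroblasts of NO_AG it ran from 0.738 in bulge and germ keratinocytes to 3.96 in upper hair follicle, both in mouse 1, and reached 10.96 and 5.14 in endothelium. T cells, which are known to make little or no class II in the mouse and so serve as a background for free RNA, held 4.05 in both NO_AG mice. The mean levels of the named keratinocyte states and fibroblasts in NO_AG lay at or below the T cell level, while keratinocytes of no state held 3.08 and 6.95. In AG the level was 22.8 and 14.5 in interfollicular basal keratinocytes, 21.2 and 21.4 in cycling keratinocytes, and 78.6 (7 cells) and 28.8 in endothelium, against 5.44 and 3.82 in T cells. Both AG mice of these 3 classes lay above both of their NO_AG mice.

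Within each group, each of the 7 members was compared between every class outside leukocytes and each of Langerhans cells, other dendritic cells and macrophages that had 10 cells in both mice. In limma with mouse as a block, 266 such differences were computed, but 89 of them concern a member that did not pass the filter on low values within the class outside leukocytes, or a class with no fit of its own, and entered through the cells where it is high. These 89 are not read here. The other 177, of keratinocyte states and of H2-Ab1 in fibroblasts, were all below 0 at a Benjamini-Hochberg adjusted p of 0.05. They ran from -10.62 on the log2 scale, for Cd74 of NO_AG bulge and germ cells against Langerhans cells, to -3.83, for H2-DMb1 of the same cells against macrophages. The share of all genes called in these comparisons, in either direction, was 21.8% to 37.6%. In AG, Cd74 of cycling keratinocytes was lower than in macrophages by a log2 difference of -5.26 (SE 0.73, adjusted p = 6.0e-07, limma).

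**Figure D1:**
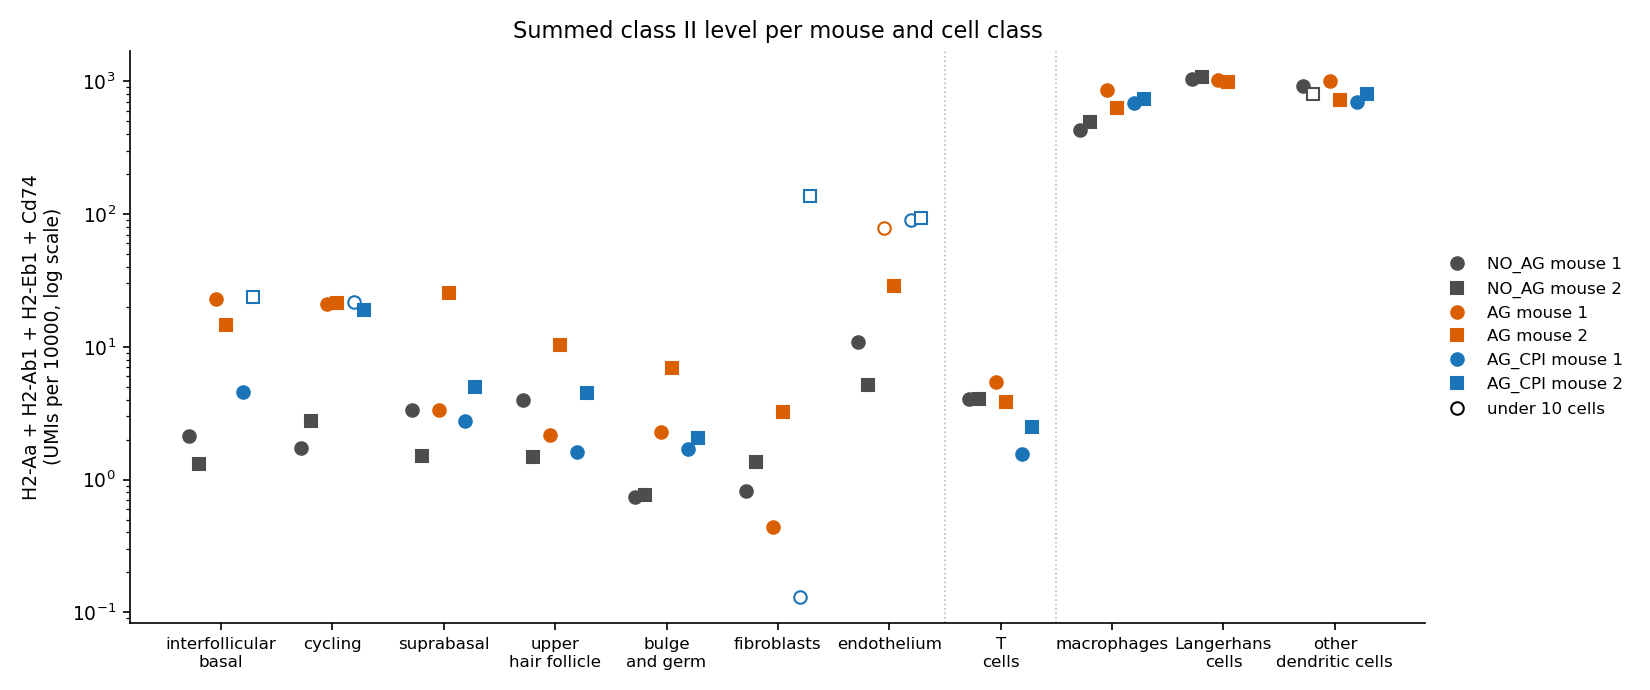
Summed level of H2-Aa, H2-Ab1, H2-Eb1 and Cd74 (UMIs per 10000, log scale) in each mouse for the cell classes on the x axis; colours are groups, shapes are mice, and open symbols are classes with under 10 cells in that mouse. Dotted lines set T cells apart. Dendritic cells and macrophages lie at 426 or above, and endothelium of AG lies at 78.6 and 28.8.

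Cycling keratinocytes, the state led by mitosis genes such as Cenpf and Ube2c, had the most members called between AG and NO_AG: the 3 chain genes and the invariant chain rose in AG. Cd74 was at 0.920 and 1.68 in NO_AG (149 and 87 cells) and at 11.5 and 13.1 in AG (71 and 44 cells), a log2 fold change of 3.29 (SE 0.25, adjusted p = 0.0014, limma). H2-Eb1, the I-E beta chain, was at 0.287 and 0.415 in NO_AG and at 3.76 and 3.01 in AG (log2 fold change 3.04, SE 0.23, adjusted p = 0.0014). Both AG mice lay well above both NO_AG mice, and the 2 mice of a group lay close together.

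For I-A, H2-Ab1 was at 0.248 and 0.444 in NO_AG and at 3.49 and 3.28 in AG (log2 fold change 3.08, SE 0.25, adjusted p = 0.0018, limma). H2-Aa was at 0.273 and 0.209 in NO_AG and at 2.40 and 2.02 in AG (2.84, SE 0.23, adjusted p = 0.0018). So both chains of I-A differed by nearly the same amount, and the groups did not overlap. In this comparison 4 of the 6 members tested were called, each of them higher, against 0.553% of all 6877 genes called and likewise 0.553% called higher. All 6 had both AG mice above both NO_AG mice, as did 22.1% of all genes. The members' median log2 fold change was 2.94 against 0.00 over all genes. H2-DMa lay below the filter's mean of 0.1 in both NO_AG mice, so it entered through libraries where it is higher. Its place in these counts and in the median is therefore no support. Fold changes here and below are of log2(scaled level + 0.1), which understates those of low genes.

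The 4 calls in cycling keratinocytes were made again under each scaling, pseudocount and clustering tried, with any 1 library left out (0.553% to 26.6% of all genes called, most without AG mouse 1), and with the cells that held a leukocyte UMI left out, where Cd74 had a log2 fold change of 3.25. With a minimum of 4 cells, which brings in 6 cells of AG_CPI mouse 1, 2 calls were left (Cd74 and H2-Eb1). Of 15 leukocyte markers, summed, cycling keratinocytes held 0.287 and 0.137 in NO_AG and 0.515 and 1.74 in AG, with 6 and 6 markers at 0 in NO_AG and 6 and 3 in AG. Of these markers 1, Cd52, passed the filter on low values and rose too (log2 fold change 2.21, SE 0.34, adjusted p = 0.034, limma). The part of leukocyte RNA in the difference was not tested beyond these values.

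**Figure D2:**
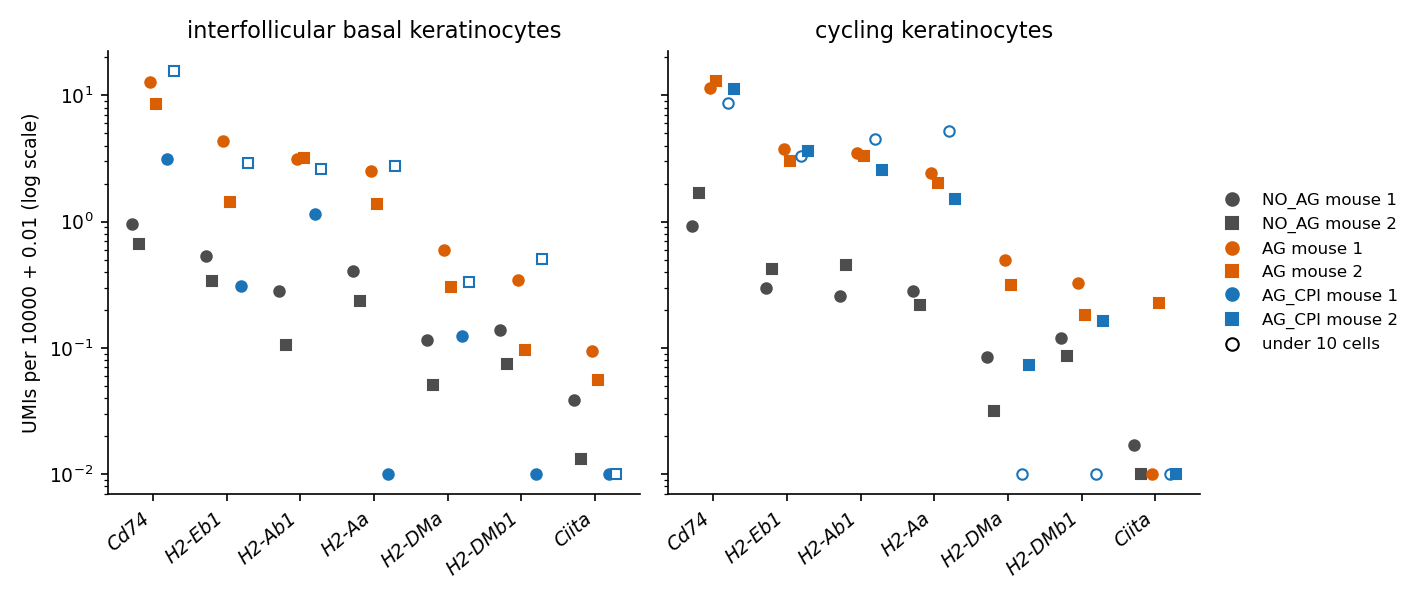
Level of each of the 7 genes (UMIs per 10000, log scale, with 0.01 added so that zeros can be drawn) in interfollicular basal and cycling keratinocytes of each mouse; open symbols are under 10 cells. In cycling cells both AG mice lie above both NO_AG mice for 6 of the 7 genes, and Ciita sits at or near 0.

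Interfollicular basal keratinocytes, the state led by Krt5, Col17a1 and Igfbp3 in the epidermis between follicles, also had more Cd74 and H2-Ab1 in AG. Cd74 was at 0.949 and 0.651 in NO_AG (564 and 368 cells) and at 12.8 and 8.55 in AG (154 and 21 cells), a log2 fold change of 3.64 (SE 0.29, adjusted p = 0.028, limma). H2-Ab1 was at 0.275 and 0.0959 in NO_AG and at 3.12 and 3.18 in AG (3.63, SE 0.35, adjusted p = 0.042). The AG mice lay above the NO_AG mice in both genes, and 2 of 6 members tested were called, both higher, against 0.333% of 7207 genes called and 0.305% called higher. In 5 of the 6 members both AG mice lay above both NO_AG mice, as in 24.2% of all genes.

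H2-Eb1 was at 0.528 and 0.331 in NO_AG and at 4.36 and 1.42 in AG, and its log2 fold change of 2.38 (SE 0.55) did not pass the test (adjusted p = 0.35, limma). H2-Aa was at 0.397 and 0.225 in NO_AG and at 2.52 and 1.37 in AG (2.34, SE 0.39, adjusted p = 0.19). For both genes the groups did not overlap, but the AG mice lay far apart. The 2 calls were not made with doublets kept, at a Leiden resolution of 0.5, after thinning, without the filter on low values, or with a minimum of 4 cells (0 calls each). They came to 1 at a pseudocount of 0.02, to 4 of 4 tested without AG mouse 1 and to 6 of 6 without AG mouse 2, where 66.8% and 24.1% of all genes were called as well. The leukocyte markers summed to 0.294 and 0.179 in NO_AG and to 0.929 and 1.02 in AG (3, 4, 3 and 8 of 15 at 0), and with cells that held a leukocyte UMI left out Cd74 had a log2 fold change of 4.02 (adjusted p = 0.033).

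The difference was also seen in the median cell of these states. The median cell of NO_AG had a summed class II level of 0 in both states, while the median basal cell of AG had 10.3 and 10.1, and the median cycling cell 6.62 and 21.4. Cells with a UMI of all 4 genes were 2.48% and 0.815% of basal cells in NO_AG and 37.7% and 14.3% in AG. In cycling cells they were 3.36% and 5.75% in NO_AG and 31.0% and 50% in AG. In T cells of the 6 mice that share was 0.401% to 1.42%. Cells with at least 10 UMIs of the 4 genes were 4.70% and 9.20% of cycling cells in NO_AG and 45.1% and 54.5% in AG, beside 1.05% and 2.04% of T cells in NO_AG and 3.85% and 1.87% in AG. Cycling cells of these mice had median depths of 7510 to 9705 UMIs and T cells 2280 to 2581, so these shares are not at equal depth between the 2 classes.

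Depth differs between libraries, so shares were also taken after each cell was thinned to 1400 UMIs. Before thinning, 23.8% and 24.7% of basal cells held a UMI of any of the 4 genes in NO_AG and 81.8% and 85.7% in AG; median depths were 5280 and 6597 UMIs in NO_AG and 7365 and 3808 in AG. After it the shares were 10.1% (Wilson 95% interval 7.88% to 12.9%) and 7.34% (5.09% to 10.5%) in NO_AG and 61.7% (53.8% to 69.0%) and 66.7% (45.4% to 82.8%) in AG. The thinned share of cycling cells was 11.4% and 21.8% in NO_AG and 57.7% and 77.3% in AG, from 32.9%, 43.7%, 88.7% and 93.2% before thinning. T cells after thinning held 28.0% and 25.0% in NO_AG and 30.5% and 27.0% in AG, so the NO_AG shares lie below those of T cells and the AG shares above them. The intervals cover counting error only.

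**Figure D3:**
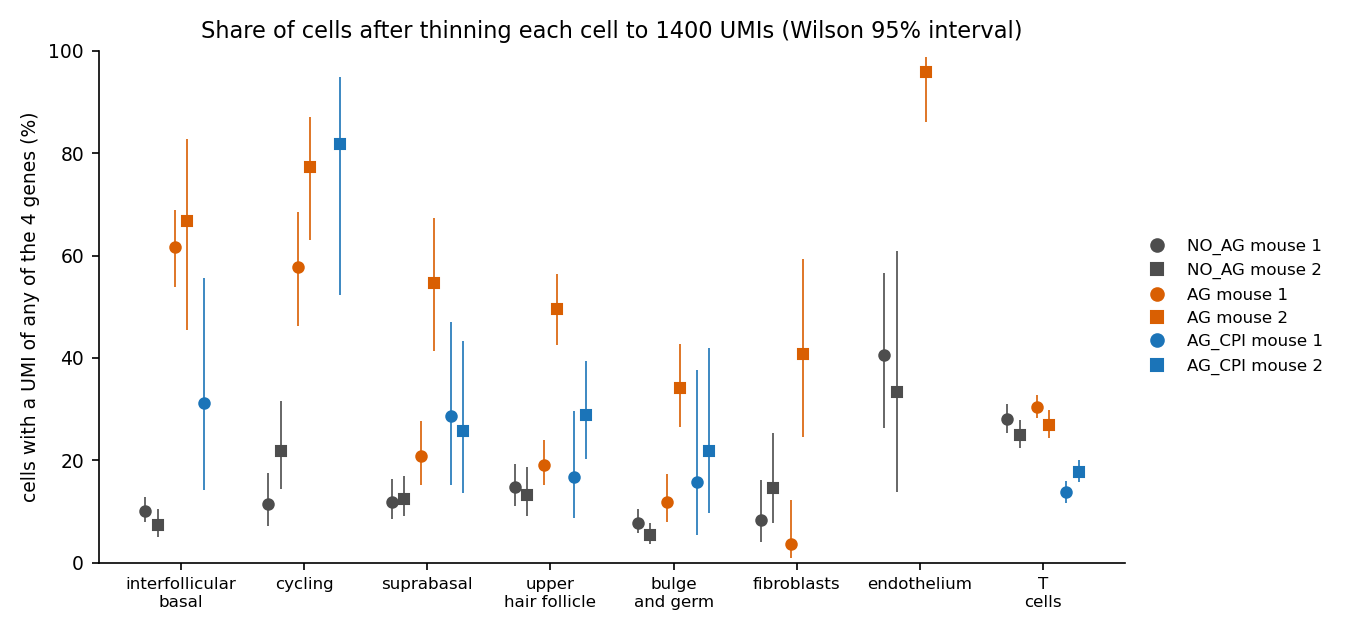
Percent of cells with a UMI of H2-Aa, H2-Ab1, H2-Eb1 or Cd74 after thinning each cell to 1400 UMIs, by class and mouse, for classes with at least 10 cells in that mouse; bars are Wilson 95% intervals of the counts. Basal and cycling keratinocytes of AG lie at 57.7% to 77.3%, above their NO_AG mice and above T cells.

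Taken over all keratinocytes, where the 5 named states, the stress keratin state and cells of no state are pooled, Cd74 and both beta chains rose in AG. The mix of states differed between groups. Stress keratin cells were 628 of the 1288 keratinocytes of AG mouse 2 and 0 in NO_AG. Basal cells were 564 of 2159 in NO_AG mouse 1 and 21 of 1288 in AG mouse 2. The mix and a change within states cannot be told apart in this pooled class. Cd74 was at 1.24 and 1.11 in NO_AG and at 4.73 and 9.64 in AG (log2 fold change 2.51, SE 0.34, adjusted p = 0.027, limma). H2-Ab1 was at 0.323 and 0.238 in NO_AG and at 1.29 and 3.08 in AG (2.54, SE 0.35, adjusted p = 0.027), and H2-Eb1 was at 0.389 and 0.299 in NO_AG and at 1.42 and 2.40 in AG (2.20, SE 0.25, adjusted p = 0.013). H2-Aa was at 0.393 and 0.254 in NO_AG and at 0.941 and 2.83 in AG, which did not pass (2.13, SE 0.43, adjusted p = 0.13). In each of these genes AG mouse 2 was the highest library, and AG and NO_AG did not overlap.

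Thus 3 of 6 members tested were called, each of them higher, against 0.587% of 8175 genes called and 0.563% called higher. In all 6 both AG mice lay above both NO_AG mice, as in 24.7% of all genes. The count depends on single libraries: it was 0 without AG mouse 2, without AG_CPI mouse 1 or without AG_CPI mouse 2, 1 without NO_AG mouse 2 and 4 without AG mouse 1, where 1.55% of all genes were called. It was 1 with doublets kept and 0 without the filter on low values or at a Leiden resolution of 0.5, while leaving out cells with a leukocyte UMI gave 4 calls. The 15 leukocyte markers summed to 0.615 and 0.591 in NO_AG and to 1.42 and 9.12 in AG. All 8 markers that passed the filter had a log2 fold change above 0 (median 1.34) and 0 were called, 4 of them at an unadjusted p below 0.05.

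The difference was less even in the other keratinocyte states, and no member passed the test there. In suprabasal cells, the state of Krt1 and Krt10, Cd74 was at 1.72 and 0.867 in NO_AG and at 1.69 and 13.1 in AG (2.03, SE 0.89, adjusted p = 0.99, limma). In upper hair follicle cells, the state of Krt79 and Krt17, Cd74 was at 2.36 and 0.912 in NO_AG and at 1.09 and 5.50 in AG (0.76, SE 0.82, adjusted p = 1.0). In both states AG mouse 1 lay within or beside the NO_AG values and AG mouse 2 above them. There the leukocyte markers summed to 1.30 and 1.08 in suprabasal and upper follicle cells of AG mouse 1 and to 9.38 and 5.30 in those of mouse 2, and their part in the difference was not tested.

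Bulge and germ keratinocytes, the state led by Lgr5 and Lhx2 at the follicle base, held Cd74 at 0.335 and 0.378 in NO_AG and at 1.35 and 3.43 in AG (2.38, SE 0.58, adjusted p = 0.91, limma). Here both AG mice lay above both NO_AG mice. Leukocyte markers summed to 0.793 and 0.420 in NO_AG and to 2.84 and 4.29 in AG. By limma, 0 of 4 members tested were called in suprabasal cells (2 at an unadjusted p below 0.05), 0 of 6 in upper hair follicle (1) and 0 of 6 in bulge and germ (2). Among all genes, 0.0287%, 0.278% and 0% were called in these states, and 290 of 6978, 315 of 7187 and 137 of 8116 had an unadjusted p below 0.05. The members' log2 fold changes ran from 0.04 (H2-DMb1, bulge and germ) to 2.38 (Cd74, bulge and germ) over the 3 states. Without either AG_CPI mouse 1 member was called in bulge and germ cells, with 0.542% of all genes. In keratinocytes of no state 0 of 6 members were called, against 0.0132% of all genes called, and all 6 had an unadjusted p below 0.05, as did 315 of 7594 genes. These cells came from different clusters in different libraries: of the 219 in AG mouse 2, 53 and 90 fell in 2 clusters with no cell of NO_AG or of AG mouse 1. In suprabasal cells 54 of the 264 of NO_AG mouse 2 fell in a cluster with 3 other cells. Without clusters mostly of 1 library, 0 members were called in these states as well. The stress keratin cells of AG mouse 2 held a summed class II level of 17.8 beside leukocyte markers of 10.6, and 40.1% of them held a UMI of the 5 leukocyte genes.

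A difference between states was not shown. With state by group in one limma model, 0 of 80 contrasts of a member that passed the filter in both of the states compared were called, over the 3 group comparisons. Of these 6 had an unadjusted p below 0.05, beside 9191 of 149168 contrasts over all genes. The other 16 contrasts, of H2-DMa and H2-DMb1 with suprabasal cells, where neither passed the filter, are not read. Among those is the 1 contrast called without AG_CPI mouse 1 and the 1 called without mouse 2, both of H2-DMb1. The share of all genes called in these contrasts was 0% to 1.35%. For AG against NO_AG it was 0.0536% for basal minus upper hair follicle cells and 0.0107% for cycling minus upper hair follicle cells and for basal or cycling minus suprabasal cells. The Cd74 response of AG against NO_AG was larger in basal than in upper hair follicle cells by 2.88 on the log2 scale (SE 1.12, adjusted p = 1.0) and larger in cycling than in upper hair follicle cells by 2.52 (SE 1.12, adjusted p = 1.0). An SE of this size leaves a wide range of differences in either pair.

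**Figure D4:**
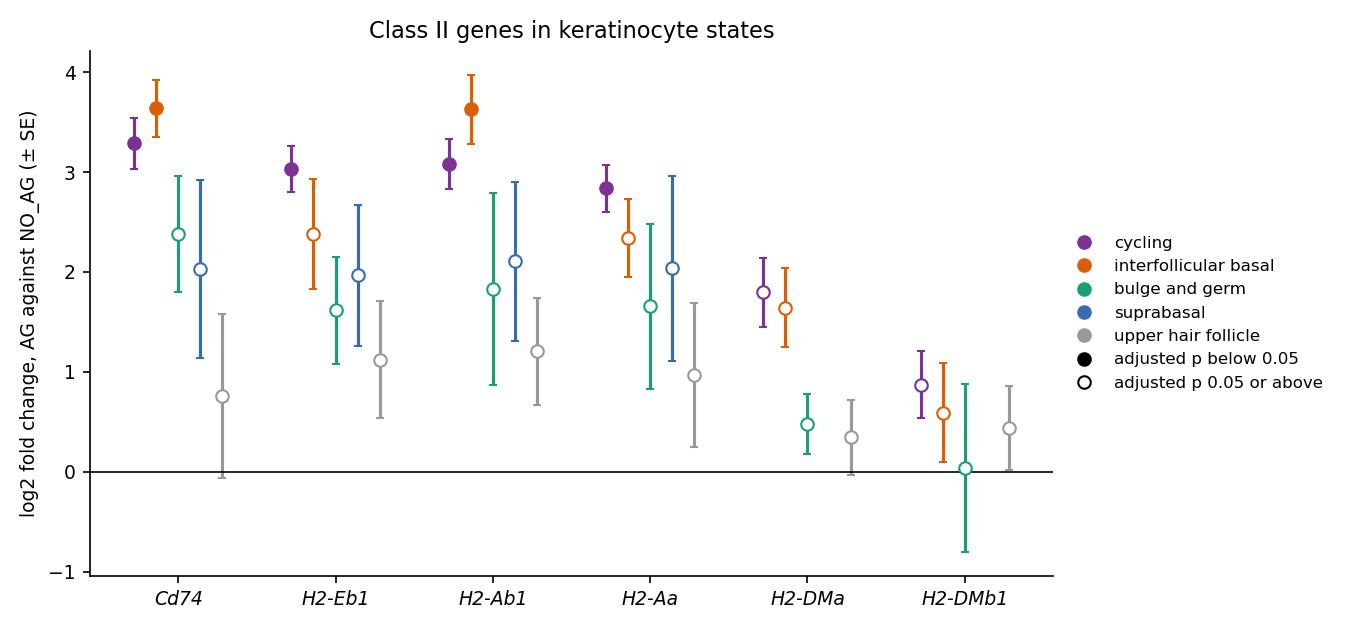
Log2 fold change of AG against NO_AG (bars, SE from limma) for the 6 members that passed the filter, in 5 keratinocyte states; filled symbols have an adjusted p below 0.05. Cd74 runs from 3.64 in basal cells to 0.76 in upper hair follicle cells, and H2-DMb1 lies at or below 0.87 in each state tested.

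The chains of the peptide editor, H2-DMa and H2-DMb1, did not pass the test in any keratinocyte state. In cycling cells H2-DMa was at 0.0738 and 0.0218 in NO_AG and at 0.489 and 0.303 in AG (log2 fold change 1.80, SE 0.34, adjusted p = 0.080, limma). H2-DMb1 was at 0.109 and 0.0758 in NO_AG and at 0.318 and 0.172 in AG (0.87, SE 0.33, adjusted p = 0.42). AG mice lay above NO_AG mice for both genes. In basal cells H2-DMa was at 0.105 and 0.0410 in NO_AG and at 0.583 and 0.295 in AG (1.64, SE 0.40, adjusted p = 0.37), while H2-DMb1 was at 0.127 and 0.0646 in NO_AG and at 0.333 and 0.0867 in AG, so that its groups overlapped. Over all keratinocytes H2-DMa had a log2 fold change of 1.13 (SE 0.21, adjusted p = 0.10) and H2-DMb1 one of 0.67 (SE 0.19, adjusted p = 0.28). At these low levels the pseudocount of 0.1 takes up much of the fold change, so its size is not comparable with that of Cd74.

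Ciita, the class II coactivator, was hardly detected outside antigen-presenting cells and passed the filter in no keratinocyte state. Cycling cells held 1 and 0 Ciita UMIs in NO_AG and 0 and 4 in AG. Of 71 cycling cells in AG mouse 1 none held a UMI, which allows up to 4.23% of cells with a UMI at this depth and sets no limit on the cells that express the gene. Basal cells held 6 and 1 UMIs in NO_AG and 6 and 1 in AG. Over all keratinocytes its level in NO_AG was 0.0125 and 0.00369 (13 and 5 UMIs), in AG 0.0173 and 0.0354 (10 and 25 UMIs), and in AG_CPI 0 and 0.0314 (0 and 4 UMIs). The AG mice lay above the NO_AG mice, at counts too low for a test. Macrophages held Ciita at 0.884 and 1.33 in NO_AG and 1.02 and 1.30 in AG, and Langerhans cells at 2.34 and 1.67 in NO_AG and 2.66 and 2.76 in AG.

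Over all keratinocytes no member passed the test between AG_CPI and either other group. The mix of states differed here as well, so the mix and a change within states cannot be told apart. Cd74 was at 3.60 and 5.88 in AG_CPI (175 and 241 cells), above both NO_AG mice and overlapping AG, and its log2 difference from AG was -0.51 (SE 0.34, adjusted p = 0.62, limma). H2-Eb1 was at 0.802 and 0.964, below both AG mice (-0.96, SE 0.25, adjusted p = 0.39). All 6 members had a value below 0 against AG, 2 of them at an unadjusted p below 0.05, and 0 were called. Of all 8175 genes 0% were called in this comparison, with 869 at an unadjusted p below 0.05. Against NO_AG, Cd74 had a log2 fold change of 1.99 (SE 0.34, adjusted p = 0.055), and 0 of 6 members were called (4 at an unadjusted p below 0.05, as were 1392 of all genes) against 0.758% of genes. With cells that held a leukocyte UMI left out 4 members were called against NO_AG, and 4 without AG mouse 1 or without AG mouse 2, where 1.23%, 2.48% and 2.76% of all genes were called. The leukocyte markers summed to 3.35 and 8.44 in AG_CPI, above mouse 1 of AG at 1.42.

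Few keratinocytes of AG_CPI could be placed in basal and cycling states, with fewer than 10 cells in 1 mouse of each, so they were not tested. Cycling cells of AG_CPI, 6 and 11 in number, held a summed class II level of 21.7 and 19.0, beside 21.2 and 21.4 in AG. In these 17 cells 14 of the 15 leukocyte markers were at 0 in each mouse. A count of markers at 0 depends on the number of cells, so it is not comparable with that of larger classes. Basal cells of AG_CPI, 16 and 8 in number, held 4.58 and 23.9, the first between NO_AG and AG and the second above AG, with leukocyte markers at 9.33 and 14.4. In suprabasal, upper hair follicle and bulge and germ cells 0 members were called in AG_CPI against AG or NO_AG by limma (1 member at an unadjusted p below 0.05, H2-Eb1 of bulge and germ cells, lower than in AG; of all genes 698, 763 and 1110 had one against AG and 850, 1115 and 1032 against NO_AG). Against AG 0%, 0.0139% and 0% of all genes were called in these states, and against NO_AG 0.043%, 1.02% and 0%. Without AG_CPI mouse 1 or mouse 2, bulge and germ cells had 3 calls against AG, where 18.5% and 33.6% of all genes were called too, and 2 against NO_AG, where 16.8% and 33.2% were. Without AG_CPI mouse 2 upper hair follicle cells had 1 call against AG, with 10.4% of all genes. Of the 83 upper hair follicle cells of that mouse 41 fell in a cluster of their own, led by Sprr1a, Asprv1 and Klk6, so different clusters are compared there. Without it the summed level of that mouse was 7.21 in place of 4.52, and 0 members were called. In keratinocytes of no state 0 of 6 members were called against AG (1 at an unadjusted p below 0.05) or NO_AG (5), where 0.0132% and 0.0263% of genes were called and 675 and 969 of 7594 had an unadjusted p below 0.05. The summed level in bulge and germ cells was 1.71 and 2.07 in AG_CPI, below 2.29 and 6.95 in AG. In suprabasal cells it was 2.76 and 4.98 in AG_CPI beside 3.37 and 25.4 in AG, and in upper hair follicle cells 1.61 and 4.52 beside 2.18 and 10.3. In both of these states AG_CPI mouse 2 lay above AG mouse 1 and below AG mouse 2.

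Class II levels and leukocyte markers were also set side by side over classes. For each UMI of the 15 leukocyte markers, macrophages held 1.69 to 2.80 UMIs of the 4 class II genes and Langerhans cells 6.77 to 8.85. Basal keratinocytes of AG held 24.6 and 14.2, and cycling keratinocytes held 41.2 and 12.3 in AG and 6.02 and 20.01 in NO_AG. Suprabasal cells of AG held 2.58 and 2.71, and bulge and germ cells 0.808 and 1.62. Upper hair follicle cells of AG held 2.03 and 1.94, and the stress keratin cells of AG mouse 2 held 1.68 UMIs. Other dendritic cells of NO_AG mouse 2 held 11.7. The ratio did not separate the groups in cycling cells, where NO_AG mouse 2 lay above AG mouse 2, and the part of leukocyte RNA in the class II level of any state was not tested.

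**Figure D5:**
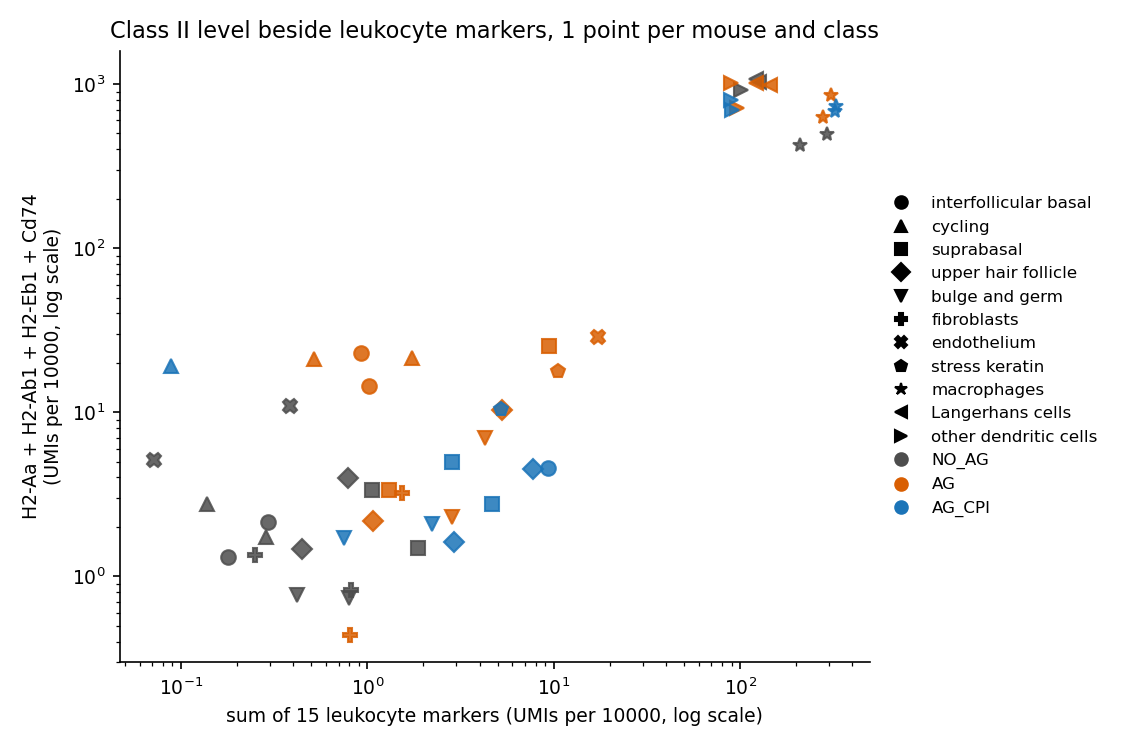
Summed level of the 4 class II genes against the summed level of 15 leukocyte markers (both UMIs per 10000, log scales), 1 point per mouse and class; shapes are classes and colours groups. Basal and cycling keratinocytes of AG (14.5 to 22.8) are at marker levels of 0.515 to 1.74.

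Fibroblasts, the collagen-making cells of the dermis, held little class II mRNA in NO_AG and AG. The summed level was 0.827 and 1.36 in NO_AG (84 and 62 cells), 0.441 and 3.23 in AG (55 and 27 cells), and 0.131 and 137 in AG_CPI (8 and 7 cells). The last value came from 1 cell: without it that mouse had 0.851. H2-Ab1, which was the 1 member to pass the filter, was at 0.326 and 1.02 in NO_AG and at 0.335 and 1.65 in AG, so the groups overlapped (log2 fold change 0.38, SE 0.66, adjusted p = 0.96, limma). Thus 0 of 1 member was called, with 0 at an unadjusted p below 0.05, against 0.198% of 4548 genes; without AG mouse 1, 1 member was called, with 10.1% of all genes. No fibroblast of these NO_AG and AG mice had a UMI of all 4 genes. For H2-Ab1 the response of keratinocytes exceeded that of fibroblasts by 2.18 on the log2 scale (SE 0.90, unadjusted p = 0.032, adjusted p = 0.99, limma), which was not called, against 0.0794% of genes.

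Endothelium, the lining of vessels, had a summed class II level of 10.96 and 5.14 in NO_AG and 78.6 and 28.8 in AG, in few cells. In AG mouse 2 keratinocytes of no state held 29.3, most of them in the clusters named above that had no cell of NO_AG. Its cells carried Cldn5, Plvap and Vwf of blood vessels and Ccl21a and Mmrn1 of lymphatics in 1 cluster. Cd74 was at 6.41 and 1.94 in NO_AG (37 and 12 cells), at 49.6 and 16.2 in AG (7 and 48 cells), and at 48.5 and 61.8 in AG_CPI (7 and 4 cells). H2-Aa was at 1.63 and 1.65 in NO_AG, at 10.8 and 4.16 in AG, and at 16.4 and 12.9 in AG_CPI. H2-Ab1 and H2-Eb1 were at 0.559 to 1.54 in NO_AG, 4.12 to 9.09 in AG and 7.20 to 14.2 in AG_CPI. In all 4 genes the NO_AG mice lay below the other 4. H2-DMa was at 0.325 and 0.613 in NO_AG and at 1.32 and 0.720 in AG, and H2-DMb1 was at 0.362 and 0.204 in NO_AG and at 0.915 and 0.734 in AG, while Ciita had 3, 1, 2, 1, 1 and 0 UMIs in the 6 mice. The median endothelial cell had a summed level of 0 and 4.92 in NO_AG, against 82.3 and 22.7 in AG and 91.2 and 98.0 in AG_CPI. So the median cell of NO_AG mouse 1, which had the higher mean of its group, held no UMI of the 4 genes.

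With the minimum of 10 cells no comparison of endothelium had both mice of both groups. With a minimum of 4 cells, added after the numbers were seen, Cd74 had a log2 fold change of 3.103 for AG against NO_AG (SE 0.58, adjusted p = 0.58, limma) and 3.99 for AG_CPI against NO_AG (SE 0.58, adjusted p = 0.063). In each of the 3 comparisons 0 of the 4 members tested were called, as were 0% of 2223 genes, and all 4, 0 and all 4 members had an unadjusted p below 0.05 in AG against NO_AG, AG_CPI against AG and AG_CPI against NO_AG, as did 57, 163 and 152 of all genes. Leukocyte markers in NO_AG summed to 0.384 and 0.0715 (12 and 14 of 15 at 0), those in AG to 1.14 and 17.3 (13 and 2 at 0), and those in AG_CPI to 12.2 and 0.555 (10 and 14 at 0). In AG mouse 1 and AG_CPI mouse 2, at 78.6 and 92.9, 13 and 14 markers were at 0, whereas 68.8% of the cells of AG mouse 2 held a UMI of the 5 leukocyte genes. AG mouse 1 and AG_CPI mouse 2 had 7 and 4 endothelial cells, too few to compare such counts with those of larger classes.

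Among antigen-presenting cells, macrophages of AG held more of the beta chains and of H2-DMb1 than those of NO_AG. H2-Ab1 was at 53.8 and 67.99 in NO_AG and at 169 and 131 in AG (log2 fold change 1.46, SE 0.24, adjusted p = 0.024, limma), where the median over all genes was 0.24. H2-Eb1 was at 58.4 and 60.3 in NO_AG and at 129.6 and 93.6 in AG (1.05, SE 0.23, adjusted p = 0.044), and H2-DMb1 was at 4.43 and 4.47 in NO_AG and at 11.04 and 7.39 in AG (1.17, SE 0.25, adjusted p = 0.043). In these 3 genes both AG mice lay above both NO_AG mice, and 3 of 7 members were called, each higher, against 6.72% of 6604 genes called and 5.39% called higher. H2-Aa (0.87, SE 0.21, adjusted p = 0.053), Cd74 (0.58, SE 0.27, adjusted p = 0.22), H2-DMa (0.45, adjusted p = 0.31) and Ciita (0.23, adjusted p = 0.68) did not pass. The count fell to 0 without either AG mouse, without either AG_CPI mouse or without the filter on low values, and to 1 with the deposited scaling or after thinning, and rose to 5 without NO_AG mouse 1 and 4 without NO_AG mouse 2, where 50.8% and 41.7% of all genes were called.

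The macrophage class was not the same mix of cells in all groups. Of 26 and 17 macrophages in NO_AG, 17 and 13 fell in a subcluster led by Retnla and Folr2, which resident dermal macrophages are known to express, against 13 of 168 and 14 of 536 in AG. Within that subcluster the summed class II level was 440 and 460 in NO_AG and 421 and 275 in AG. In the other macrophages it was 400.2 and 611 in NO_AG (9 and 4 cells) and 898 and 641 in AG (155 and 522 cells). So AG lay below NO_AG inside the subcluster and above it outside, and the part of the mix in the macrophage difference was not tested further. In AG_CPI against NO_AG, 1 of 7 members was called in macrophages (H2-Ab1 at 122 and 142 in AG_CPI, log2 fold change 1.29, SE 0.24, adjusted p = 0.027), against 7.77% of genes called and 6.33% called higher, and 0 without either AG_CPI mouse or either AG mouse, and 4 without either NO_AG mouse (51.2% and 42.3% of all genes called). In AG_CPI against AG 0 of 7 were called by limma, 0 at an unadjusted p below 0.05, against 0% of genes.

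Dendritic and Langerhans cells together gave 0 of 7 members called for AG against NO_AG (1 at an unadjusted p below 0.05, limma) against 4.44% of genes. In Langerhans cells alone 0 of 7 were called (2 at an unadjusted p below 0.05) against 1.56% of genes. H2-DMa fell in AG_CPI against AG (log2 fold change -1.27, SE 0.23, adjusted p = 0.033), the 1 of 7 members called, against 1.1% of genes called and 0.824% called lower. Against NO_AG H2-DMa (-1.76, SE 0.23, adjusted p = 0.00095) and H2-DMb1 (-0.82, SE 0.18, adjusted p = 0.013) fell, 2 of 7 members against 19.3% of genes called and 10.1% called lower. AG_CPI had no Langerhans cell, and Langerhans cells held more H2-DMa, at 20.5 to 29.4, than other dendritic cells, at 5.07 to 10.9, so the mix of cells and a change within them cannot be told apart here. The call against AG was not made without AG mouse 1, AG mouse 2 or NO_AG mouse 2, at a pseudocount of 0.02, without the filter on low values, with doublets kept, with class II genes in the clustering, or after thinning (0 each). Against NO_AG 1 call was left without either NO_AG mouse. Within other dendritic cells H2-DMa had a log2 fold change of -0.62 for AG_CPI against AG (SE 0.25, adjusted p = 0.59), where 0 of 7 members were called (1 at an unadjusted p below 0.05) and 0.198% of genes.

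The class II pathway outside the 7 members was read from a list of 26 genes for further class II chains, lysosomal proteases, promoter factors and costimulatory molecules, 21 of which had a column. In cycling keratinocytes 9 passed the filter and 0 were called in AG against NO_AG by limma (0 at an unadjusted p below 0.05), with a median log2 fold change of 0.09 against 0.00 over all genes. Of all 6877 genes 0.553% were called there, and 734 had an unadjusted p below 0.05. In basal cells 11 passed and 0 were called (1 at an unadjusted p below 0.05), and over all keratinocytes 11 passed and 0 were called (0 at an unadjusted p below 0.05). Of all genes 0.333% were called in basal cells and 0.587% over all keratinocytes. An unadjusted p below 0.05 was held by 780 of 7207 and 771 of 8175 genes. The proteases Ctsb, Ctsd and Ctsl and the promoter factor subunit Nfyb, the 4 with the highest level, had log2 fold changes over all keratinocytes of 0.12 (SE 0.16), 0.40 (SE 0.26), -0.41 (SE 0.73) and 0.12 (SE 0.16).

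In antigen-presenting cells some genes of that list were called, in classes whose mix of cells differed between groups as given above. In macrophages 2 of 17 rose in AG against NO_AG, against 6.72% of all genes called and 5.39% called higher. They were Ctss, a protease that trims the invariant chain (log2 fold change 1.97, SE 0.17, adjusted p = 0.0087, limma), and Cd40, a costimulatory receptor (2.50, SE 0.33, adjusted p = 0.019). In AG_CPI against NO_AG 4 of 17 rose there, Cd274, Cd40, Ctsl and Ctss, against 7.77% of all genes called and 6.33% called higher. In dendritic and Langerhans cells together 2 of 18 rose in AG against NO_AG, against 4.44% of all genes called in either direction. They were Cd274, which encodes the checkpoint ligand PD-L1 (2.47, SE 0.39, adjusted p = 0.0085, limma), and Cd40 (1.93, SE 0.39, adjusted p = 0.025). In AG_CPI against NO_AG 8 of 18 rose there, the costimulatory and checkpoint genes Cd274, Cd40, Cd80, Cd86 and Icosl, the protease Lgmn and the class II chains H2-Eb2 and H2-Ob, and 2 fell, Ctsb and H2-DMb2. Of all genes 19.3% were called in either direction and 10.1% were called lower. In AG_CPI against AG 0 of 17 in macrophages and 0 of 18 in dendritic and Langerhans cells were called (3 and 7 at an unadjusted p below 0.05, limma). Of all genes 0% and 1.1% were called, and 93 of 6604 and 1165 of 6191 had an unadjusted p below 0.05.

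Of the interferon-gamma signalling list, Ifngr1, a chain of the interferon-gamma receptor, had a log2 fold change of -1.25 over all keratinocytes in AG against NO_AG (SE 0.21, adjusted p = 0.070, limma), which did not pass the test. In AG_CPI against NO_AG Ifngr1 fell (-1.68, SE 0.21, adjusted p = 0.034, limma). Both values are over pooled states, whose mix differed between groups.

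The genes whose levels most resembled the summed class II level over 35 means of mouse and class outside leukocytes, out of 9795 genes, were Psme1, Nmi, Zbp1, Psmb10 and Xaf1, all known as interferon-inducible. Pearson's r was 0.83, 0.83, 0.83, 0.82 and 0.82 (Spearman's rho 0.83, 0.82, 0.81, 0.83 and 0.83), and 0.78 to 0.81 without the 2 means farthest from the median. Among the members themselves r with that sum, which contains the first 4 of them, was 0.97 for Cd74, 0.96 for H2-Eb1, 0.89 for H2-Ab1 and for H2-Aa, 0.69 for H2-DMa and 0.38 for H2-DMb1. These are descriptions without a p, since the means share mice, libraries and depth. Psme1, a subunit of the proteasome activator, had scaled levels of 2.25 and 2.62 in NO_AG, 6.03 and 4.33 in AG, and 3.25 in AG_CPI mouse 2 in cycling cells.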

How the data were processed

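Cells of treated skin from 6 mice were profiled by droplet single-cell RNA-seq. The submitters' processing notes name Cell Ranger 3.1 and mm10. The authors deposited per-cell log10 values: by the values themselves these are log10(1 + UMIs per 10000 UMIs of the cell), since whole UMIs came back for 100% of them under log10 (within 0.02 UMI) and for 65.7% to 68.3% under natural logs. The deposited genes held 95.4% to 96.7% of a library's UMIs, and totals per retained library ran from 5788650 to 23090900 UMIs.

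Cells with 200 genes and at most 20% mitochondrial UMIs were kept. Of 21178 cells 51 failed, and 663 doublets (the highest Scrublet scores, at a share set by each library's cell number) were removed. Cells were clustered with scanpy 1.11.5 and leidenalg 0.10.2 (2000 variable genes without 11 class II genes, 30 components, 15 neighbours, resolution 1). A cluster was named for the class whose markers led by 0.3 log2, with 3 markers above 2-fold.

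For each class and mouse with 10 cells, mean levels were scaled by TMM. A gene was tested if at least 2 libraries each had at least 10 of its UMIs in the class and a mean of at least 0.1. The test was limma-trend 3.58.1 in R 4.3.3 on log2(level + 0.1), with all groups in one fit. The p-values were adjusted over all genes tested (Benjamini-Hochberg, two-sided, threshold 0.05). Differences between classes came from a joint fit with mouse as a block (duplicateCorrelation). An exact permutation of 2 mice against 2 cannot go below 0.333, so none is given. The steps were tested on simulated data: among genes changed 4-fold 98.1% were called in keratinocytes, 69.0% in upper hair follicle and 39.1% in basal cells, and of those changed 2-fold 63.1%, 7.45% and 1.85%.

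The 7 genes and the lists of pathway, interferon-gamma, leukocyte and cell type marker genes were chosen with earlier results of these data known. All 7 members are named. Of the pathway list, genes that passed the test are named, or else the 4 with the highest level over all keratinocytes; the leukocyte markers are given as a whole list. Of the interferon-gamma list only Ifngr1 is given, and its other results are not reported here. The genes most like the summed class II level are the 5 with the highest Pearson's r. The alternatives tried were other pseudocounts, filters, scalings, cell filters and clusterings, doublets kept, cells with a leukocyte UMI left out, thinned cells, a replicate block and each library left out. A minimum of 4 cells, and the removal of clusters mostly of 1 library, were chosen after seeing the data. Promoters came from RefSeq, where H2-Ab1, Cd74 and Ciita had no entry used here.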

Additional observations from a re-analysis of the deposited data

How the results depend on the processing

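In AG against NO_AG, no fold change of the 6 members other than Ciita reversed under the alternatives in all keratinocytes, basal cells, cycling cells or macrophages: 391 kept their side of the threshold, 56 lost it and 20 gained it. Over all comparisons of groups within a class, 163 of 2978 values of a member under an alternative changed sign, 0 of them from a called value, and so did 111 of 1056 state differences. Counts of members called moved by over 1.5 times as follows, and the cause was not tested. Without the filter on low values, 3, 2, 3, 1 and 1 calls became 0 in all keratinocytes and basal cells and in macrophages (AG against NO_AG), in macrophages (AG_CPI against NO_AG) and in dendritic cells (AG_CPI against AG). With doublets kept, all keratinocytes went to 1 call, basal cells to 0 and dendritic cells to 0 (AG_CPI against AG) and 1 (AG_CPI against NO_AG), and clustering with class II genes gave dendritic cells 0 and 1. A Leiden resolution of 0.5 gave all keratinocytes and basal cells 0. Thinning gave 0 calls in basal cells, 1 in macrophages (AG against NO_AG), 0 in dendritic cells (AG_CPI against AG) and 1 in both AG_CPI comparisons of bulge and germ cells. At a pseudocount of 0.02, basal cells had 1 call and dendritic cells 0 (AG_CPI against AG), and at 0.5 macrophages had 3 (AG_CPI against NO_AG). The deposited scaling gave 1 call in macrophages and 1 in dendritic cells (AG against NO_AG), and upper-quartile scaling gave macrophages 4 (AG_CPI against NO_AG). The stricter cell filter (500 genes, 10% mitochondrial) gave 2 in all keratinocytes and 3 in macrophages (both AG_CPI against NO_AG) and 1 in bulge and germ cells (AG against NO_AG). Without cells that held a leukocyte UMI, all keratinocytes had 4 calls in AG_CPI against NO_AG. With a minimum of 4 cells, basal cells had 0 calls and cycling cells 2. In all keratinocytes, upper hair follicle and bulge and germ cells the deviations of same-numbered mice were hardly correlated (-0.09 to 0.09). With 2 mice per group this cannot show whether same-numbered mice share a batch or day. The main fits do not pair them. With a replicate block, basal cells had 5 calls, cells of no state 3 (AG and AG_CPI against NO_AG), macrophages 1 (AG against NO_AG) and all keratinocytes 1 (AG_CPI against NO_AG).

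With 1 library left out, where the lone mouse of a group is assumed to vary like the other groups, calls for AG against NO_AG ran from 0 to 4 in all keratinocytes, 2 to 6 in basal cells, 4 to 5 in cycling cells, 0 to 1 in bulge and germ cells and fibroblasts and 0 to 5 in macrophages. For AG_CPI against NO_AG they ran from 0 to 4 in all keratinocytes and macrophages, 0 to 2 in bulge and germ cells and 1 to 3 in dendritic cells, and for AG_CPI against AG from 0 to 1 in upper hair follicle, 0 to 3 in bulge and germ cells and 0 to 2 in dendritic cells. State differences called ran from 0 to 1, the 1 being of H2-DMb1, which did not pass the filter in suprabasal cells. Thinned shares had means of 8.72% (basal, NO_AG), 64.2% (basal, AG), 16.6% (cycling, NO_AG), 67.5% (cycling, AG), 26.5% (T cells, NO_AG) and 28.7% (T cells, AG), and not thinned the T cells of AG had 38.3%, or 39.2% with doublets kept. With no library left out, counts of all genes called in AG against NO_AG ran from 4 in all keratinocytes (48), from 2 to 228 in basal cells (24), from 4 to 114 in cycling cells (38) and from 118 to 831 in macrophages (444). Upper-quartile scaling moved the median of all genes by 0.19 in macrophages and by -0.12 in basal cells (AG against NO_AG). With AG mouse 1 left out, 4606 of 6897 genes were called in basal cells and 1769 of 6653 in cycling cells. Few cells limit the precision, with 21 basal cells in AG mouse 2, 8 in AG_CPI mouse 2, 6 cycling cells in AG_CPI mouse 1, 8 and 7 fibroblasts in AG_CPI, and 4 to 12 endothelial cells in 4 mice.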

Other observations

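Melanocytes, sebocytes and hair matrix cells were in no comparison above. Melanocytes, the pigment cells, held a summed level of H2-Aa, H2-Ab1, H2-Eb1 and Cd74 of 9.80 and 4.18 UMIs per 10000 in NO_AG, and 18.1 and 42.9 in AG. AG_CPI is left out, since mouse 1 had no such cell and 21 of the 24 of mouse 2 formed a cluster whose leading genes were mostly not of pigment cells (Pinlyp, Klk7 and Klk10 beside Dct and Mlana). Their leukocyte markers summed to 3.96 and 5.32 in NO_AG, and 0.408 and 20.04 in AG. AG mouse 1 thus had the lowest marker level of these 4 mice and a class II level above both NO_AG mice, from 19 cells. Sebocytes held 8.85 and 7.26 in NO_AG and 1.33 and 18.2 in AG, where the groups overlapped. Hair matrix cells held 1.09 and 4.91 in NO_AG and 1.16 and 28.4 in AG, overlapping as well.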
